A study of Mus musculus with 4 samples.

Results

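Genes that separate the macrophages living in perivascular adipose tissue (PVAT) from monocytes and newly recruited macrophages were examined after wire injury of the mouse femoral artery. The genes were 10 in number and were chosen by name, as 6 genes typical of resident macrophages (*Lyve1*, *Timd4*, *Folr2*, *Cd163*, *Mrc1* and *F13a1*) and 4 genes typical of monocytes or induced in macrophages (*Ly6c2*, *Plac8*, *Chil3* and *Retnla*). Of these, 9 were found among the 12661 genes analysed, 5 of them resident-type and 4 monocyte-derived or induced. *Timd4* was not analysed here. All libraries came from wild type C57BL/6 females that were 11 weeks old and ovariectomized, a procedure shared by both groups. The RNA was that of the outer tissues of the femoral artery, which are mostly PVAT, 48 h after a wire was passed into the artery or after a sham operation, with 2 libraries in each group. The labels do not say whether each library was 1 animal or a pool, so the p-values measure the spread between these libraries only.

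Macrophages of adipose tissue are of mixed origin. Some settle early in life or renew themselves along vessels and are known by scavenger receptors, by the hyaluronan receptor LYVE1 and by the folate receptor beta. Others descend from blood monocytes, which carry the surface protein Ly6C and enter through the chemokine receptor CCR2 when tissue is damaged. Cells of either origin can be driven by interleukin 4 to express secreted proteins such as those of *Chil3* (Ym1) and *Retnla* (RELM alpha). In bulk tissue, fewer cells of a type and less RNA per cell cannot be told apart.

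The values deposited for each gene and library are signed scores on a log-like scale, from -2.27 to 6.45 over all genes, with a centre set gene by gene. The mean of the 4 libraries is not 0 for each gene, and which samples set the centre is not stated. The base of the scale is not stated either, so no fold change is given, differences stay in deposited units, and the level of one gene cannot be set against that of another. Depth and abundance are unknown. Differences were tested with limma across all genes with Benjamini-Hochberg adjustment and are called at an adjusted p under 0.05. By that rule 3.76% of all genes were called higher after injury and 3.67% lower. Both injury libraries lay above both sham libraries in 31.6% of all genes and below them in 30.3%. The calls needed all of the sham libraries, with 0 genes called without sham replicate 1 and 1 without sham replicate 2. Over all genes, 284 were called without injury replicate 1 and 1790 without injury replicate 2, beside 941 with all 4 libraries, and calls of single genes without a library are read against these counts. At this size the smallest p of an exact permutation test is 0.333.

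None of the 5 resident-type and none of the 4 monocyte-derived or induced genes was called by limma. At an unadjusted p under 0.05 there were 5 of the 9, namely *Ly6c2*, *Retnla*, *Folr2* and *Mrc1* with higher and *Lyve1* with lower values after injury, where 14.8% of all genes reached that level as higher and 14.8% as lower. The resident-type genes had no common direction. *Lyve1* and *Cd163* had lower values in both injury libraries than in either sham library, while *Folr2*, *Mrc1* and *F13a1* had higher values in both. Of the other group, *Ly6c2*, *Chil3* and *Retnla* were higher in both injury libraries, and *Plac8* overlapped between the groups. The median difference was 0.34 deposited units over the resident-type genes and 0.95 over the others, beside 0.008 over all genes. For the resident-type genes the mean had the opposite direction to the median, at -0.19 and -0.47 in the sham and -0.62 and -0.35 in the injury libraries. Their median difference became 0.58 when sham replicate 1 was left out and 0.097 when sham replicate 2 was.

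**Figure D1:**
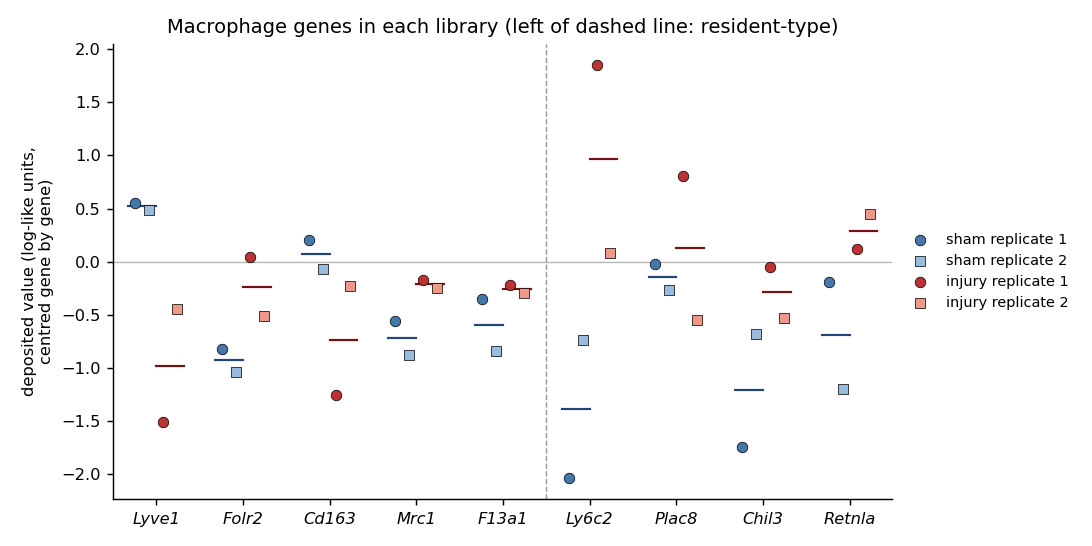
Deposited value (log-like units, centred gene by gene) of each of the 9 genes in the 2 sham libraries (blue) and the 2 injury libraries (red), with a bar at each group mean. *Lyve1* and *Cd163* lie lower after injury, *Plac8* overlaps between the groups, and the other 6 genes lie higher in both injury libraries.

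Windows before the start of transcription are shown for 3 of these genes, because they stand for different kinds of gene, with *Cd163* as a scavenger receptor of resident macrophages, *Ly6c2* as the monocyte gene and *Retnla* as a gene induced by interleukin 4. They are the 250 bases before the start in RefSeq (build GRCm38.p6), which held a window for 9 of the 10 genes and none for *Lyve1*. The positions are chr6:124304401-124304650 on the plus strand for *Cd163*, chr15:75111972-75112221 on the minus strand for *Ly6c2* (the first of its 2 windows) and chr16:48842359-48842608 on the plus strand for *Retnla*. Each is written from 5′ to 3′, and capitals mark every match, on either strand, to the motif of STAT6 (TTC and GAA with any 4 bases between them), of C/EBP proteins (TTNNGNAAT), of PU.1 (GAGGAA) or of MAF proteins (TGCTGA).
Cd163: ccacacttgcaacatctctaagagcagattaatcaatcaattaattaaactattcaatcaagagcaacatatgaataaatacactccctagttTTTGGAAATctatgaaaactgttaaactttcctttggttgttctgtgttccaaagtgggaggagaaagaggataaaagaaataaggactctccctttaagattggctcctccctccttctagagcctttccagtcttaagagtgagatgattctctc
Ly6c2: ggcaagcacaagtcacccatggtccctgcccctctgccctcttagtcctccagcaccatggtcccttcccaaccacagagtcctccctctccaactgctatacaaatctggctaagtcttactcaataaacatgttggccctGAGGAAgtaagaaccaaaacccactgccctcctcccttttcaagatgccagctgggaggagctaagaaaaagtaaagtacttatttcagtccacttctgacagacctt
Retnla: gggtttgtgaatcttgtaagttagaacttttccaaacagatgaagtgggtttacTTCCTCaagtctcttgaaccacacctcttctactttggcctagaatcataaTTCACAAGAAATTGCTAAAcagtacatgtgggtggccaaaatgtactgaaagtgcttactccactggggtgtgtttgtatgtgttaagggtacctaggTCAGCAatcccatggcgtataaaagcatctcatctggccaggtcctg

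In the *Retnla* window the STAT6 motif, from 145 to 136 bases before the start, was followed without a gap by the C/EBP motif, from 135 to 127 bases before it. A STAT6 motif was found in 5.89% and a C/EBP motif in 10.2% of all 32536 windows of this length. STAT6 carries the interleukin 4 signal to the nucleus. Among the windows not shown, that of *Chil3* held no STAT6 motif, while a window of *Plac8* held it from 153 to 144 bases before the start. The *Cd163* window held a C/EBP motif from 157 to 149 bases before the start, and the *Ly6c2* window held a PU.1 motif from 108 to 103 bases before it. The PU.1 motif was found in 23.4% and the MAF motif in 16.1% of all windows. A match is a description of the letters and shows no binding.

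*Lyve1* lies on chromosome 7 of mm9 from 117994121 to 118006467 and encodes a hyaluronan receptor of perivascular macrophages and of lymphatic endothelium. Its values were 0.56 and 0.49 in the sham libraries and -1.51 and -0.45 in injury replicates 1 and 2. The sham libraries were close together and the groups did not overlap, with 0.93 units between the nearest libraries. The difference was -1.50 (standard error 0.35, 95% confidence interval -2.37 to -0.63, adjusted p = 0.061 from limma), which stood at percentile 0.91 of the differences of all genes. *Lyve1* was called lower after quantile normalization (adjusted p = 0.0484 from limma) and with columns scaled to one spread (adjusted p = 0.0435), and the adjusted p was 0.0435 to 0.0648 over the fits to all 4 libraries. Without injury replicate 2 it was called as well (difference -2.03, adjusted p = 0.00731 from limma), and without injury replicate 1 the difference was -0.97.

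*Cd163*, on chromosome 6 from 124254669 to 124280545, encodes the scavenger receptor for complexes of haptoglobin and haemoglobin. Its sham values were 0.21 and -0.066 and its injury values -1.25 and -0.23. Only 0.16 units separated injury replicate 2 from the lower sham library, and injury replicate 1 was lower still, at -1.03 relative to injury replicate 2. The difference of -0.81 (standard error 0.35, adjusted p = 0.191 from limma) was within an interval of -1.68 to 0.057. It was -1.32 without injury replicate 2, where it was called (adjusted p = 0.0166 from limma), and -0.30 without injury replicate 1.

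Most markers of lymphatic endothelium were lower in the same libraries as *Lyve1*. Of the 10 markers 8 were analysed, 7 were lower in both injury libraries and 4 were called lower by limma, where the shares over all genes were 30.3% and 3.67%, and their median difference was -1.08. The marker that was higher in both injury libraries was *Pdpn*, which encodes podoplanin and is used by fibroblasts too, at a difference of 0.71 (adjusted p = 0.0934 from limma). It was named after its values were seen. *Prox1*, the transcription factor that defines lymphatic identity, was at 1.25 and 0.34 after sham operation and at -0.76 and -1.04 after injury (difference -1.70, standard error 0.32, adjusted p = 0.0423 from limma). *Flt4*, the receptor of lymphatic growth factors, differed by -1.04 (adjusted p = 0.0465) and *Mmrn1*, named after its values were seen, by -1.83 (adjusted p = 0.0308). The mean over the 8 markers was 0.37 and 0.10 in the sham libraries and -0.69 and -0.68 in the injury libraries. For single genes, injury replicate 1 minus injury replicate 2 was -1.07 for *Lyve1* and -1.03 for *Cd163*. How much of the lower value of *Lyve1* comes from lymphatic endothelium and how much from macrophages was not tested. All 10 markers of blood endothelium also had lower means after injury, with a median difference of -0.71. Of these, 9 were lower in both injury libraries and 3 were called lower by limma, beside 30.3% and 3.67% of all genes. Without either sham library or without injury replicate 1, 0 of the lymphatic markers were called, and without injury replicate 2 there were 3 called lower and 1 higher (847 and 943 of all genes).

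**Figure D2:**
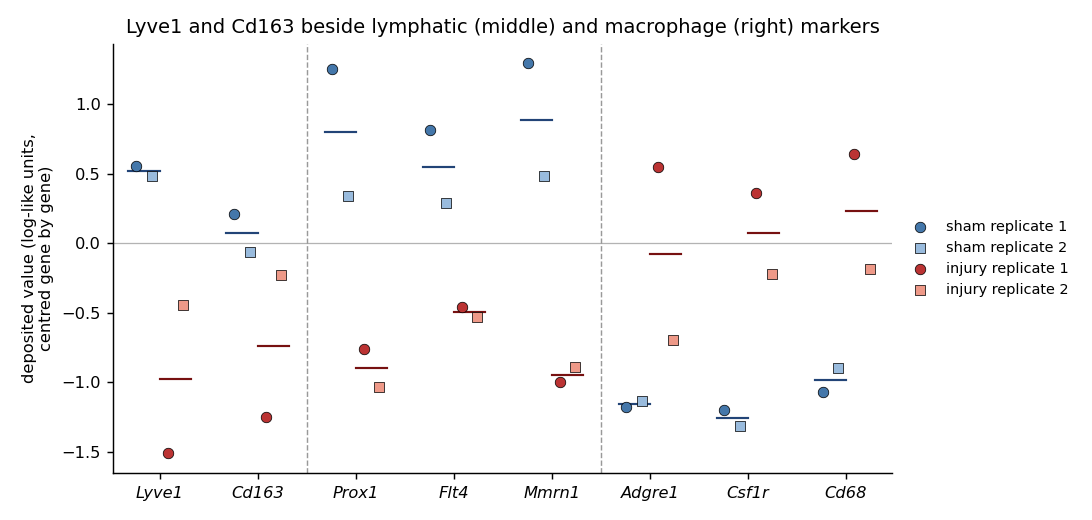
Deposited value (log-like units, centred gene by gene) in each of the 4 libraries, with a bar at each group mean, for *Lyve1* and *Cd163*, for 3 lymphatic markers and for 3 macrophage markers. The 3 lymphatic markers plotted are lower in both injury libraries, *Lyve1* and *Cd163* are lowest in injury replicate 1, and the macrophage markers are higher in both injury libraries.

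*Folr2*, on chromosome 7 from 108988512 to 108993831, encodes the folate receptor beta of tissue macrophages. It was at -0.82 and -1.03 in the sham libraries and at 0.042 and -0.51 in the injury libraries. The groups did not overlap, and injury replicate 2 was the nearer to sham. The difference was 0.69 (standard error 0.22, interval 0.14 to 1.25, adjusted p = 0.113 from limma), and it was 0.97 and called without injury replicate 2 (adjusted p = 0.0297 from limma) but 0.42 without injury replicate 1 (adjusted p = 0.249).

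*Mrc1*, on chromosome 2 from 14151041 to 14253684, encodes the mannose receptor CD206, by which alternatively activated macrophages are often sorted. Its sham values of -0.56 and -0.87 lay below its injury values of -0.17 and -0.25. The injury libraries were only 0.078 units apart, and either of them alone gave a higher mean than sham. The difference of 0.51 (standard error 0.16, interval 0.097 to 0.91) had an adjusted p of 0.115 from limma. *F13a1*, on chromosome 13 from 36959047 to 37142113, encodes the A chain of coagulation factor XIII, made by tissue macrophages, monocytes and platelets. It was at -0.35 and -0.84 after sham operation and at -0.22 and -0.30 after injury. The groups were 0.057 units apart, and the difference of 0.34 (standard error 0.20, adjusted p = 0.313 from limma) was within the spread of the sham libraries. Leaving out sham replicate 2 gave 0.097 and leaving out sham replicate 1 gave 0.58. Of the platelet markers, *Ppbp* differed by 0.91 (adjusted p = 0.0561 from limma) and *Itga2b* by -0.28 (adjusted p = 0.464). The groups overlapped in 6 of the 8 analysed, beside 4827 of all 12661 genes.

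*Ly6c2*, on chromosome 15 from 74938590 to 74942114, encodes the Ly6C antigen of inflammatory monocytes and had the highest difference of the 9 genes. It was at -2.04 and -0.74 in sham replicates 1 and 2 and at 1.85 and 0.085 in injury replicates 1 and 2. The groups did not overlap, but the injury libraries were 1.77 units apart and the sham libraries 1.30. The difference was 2.36 (standard error 0.68, interval 0.67 to 4.05, adjusted p = 0.0908 from limma), at percentile 99.9 of all genes. It was called without injury replicate 2 (difference 3.24, adjusted p = 0.0198 from limma) and was 1.47 without injury replicate 1. Its near copy *Ly6c1*, on the same chromosome from 74875447 to 74879260 and used by endothelial cells, was at 0.37 and 0.38 after sham operation and at 0.023 and 0.29 after injury, and reads of these genes could have been divided between them by the counting. *Ly6i*, another member of the family, differed by 1.74 (adjusted p = 0.11 from limma).

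*Plac8*, on chromosome 5 from 100982744 to 101001264, encodes a small cysteine-rich protein of monocytes, neutrophils and lymphocytes. It was at -0.018 and -0.27 after sham operation and at 0.81 and -0.54 after injury. The injury libraries lay on either side of both sham libraries. The difference of 0.27 (standard error 0.44, adjusted p = 0.717 from limma) had an interval of -0.82 to 1.37. It was -0.40 without injury replicate 1 and 0.95, and called, without injury replicate 2 (adjusted p = 0.0338 from limma), so its direction was set by single libraries.

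*Chil3* lies on chromosome 3 from 105950472 to 106022425, where the annotation lists it under its older symbol *Chi3l3*, and encodes a chitinase-like protein secreted by myeloid cells. Sham replicate 1 was at -1.74, far below sham replicate 2 at -0.68, and the injury libraries were at -0.048 and -0.53. The groups were 0.15 units apart, less than the 1.06 between the sham libraries. Its difference of 0.92 (standard error 0.38, adjusted p = 0.176 from limma) had an interval from -0.020 to 1.86. That difference became 0.39 without sham replicate 1 and 1.45 without sham replicate 2. *Chil3* has close copies with which reads could have been shared.

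*Retnla*, on chromosome 16 from 48842665 to 48844574, encodes the secreted RELM alpha. It was at -0.19 and -1.20 after sham operation and at 0.12 and 0.45 after injury. It was the only one of the 4 monocyte-derived or induced genes with its higher injury value in replicate 2. The difference was 0.98 (standard error 0.34, interval 0.12 to 1.84, adjusted p = 0.136 from limma), and leaving out sham replicate 1 gave 1.48, leaving out sham replicate 2 gave 0.48. *Retnlg*, a relative used by neutrophils, was called higher by limma (difference 1.83, adjusted p = 0.0291). The study shows *Mrc1*, *Chil3* and *Retnla* as upregulated in these same libraries, so their direction is not independent evidence. For *Mrc1* it also reports upregulation by quantitative PCR in PVAT collected earlier after injury than these libraries.

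The other genes of these classes were taken from lists of known markers. Of 24 other resident macrophage genes analysed, 5 were called higher by limma and none lower, where the shares over all genes were 3.76% and 3.67%. After quantile normalization 4 were called higher and 2 lower, beside 509 and 552 of all genes. The same 4 and 2 were counted with columns scaled to one spread, beside 545 and 583 of all genes. Both injury libraries lay above both sham libraries in 10 of the 24 and below them in 6, where the shares over all genes were 31.6% and 30.3%. At an unadjusted p under 0.05 there were 10 with higher and 5 with lower values, where the share over all genes was 14.8% each way. Among the genes called higher were *C1qa*, *C1qb* and *C1qc*, which encode the chains of complement C1q, and the lectin gene *Clec10a*, with differences of up to 1.36 (*C1qb*). The lowest differences were those of *Fcna*, a ficolin gene, and *Gas6*, a ligand of the receptors that take up dying cells, at -0.89 and -0.77 (adjusted p = 0.169 and 0.0728 from limma). *Cbr2*, named after its values were seen, differed by -0.69 (adjusted p = 0.0607 from limma). The order of the injury libraries was mixed in this list, with 12 of the 24 genes higher in injury replicate 1.

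Of 20 other monocyte genes, 5 were called higher by limma and none lower (3.76% and 3.67% of all genes), with a median difference of 1.15. *Ccr2*, the receptor by which monocytes follow CCL2, was called with a difference of 2.30, and *F10*, coagulation factor X, with 2.46 (adjusted p = 0.0285 for both from limma). *S100a4* (1.39), *Cebpb* (1.17) and *Ifitm6* (1.13) were also called. *Ms4a4c* differed by 2.38 and did not pass (adjusted p = 0.052), and *Hp* (-0.45) and *Nr4a1* (-0.35) had the lowest differences. Of 15 other genes induced by interleukin 4, 6 were called higher and 1 lower, where the shares over all genes were again 3.76% and 3.67%. *Mmp12*, a macrophage elastase, differed by 2.05 and *Clec7a*, a receptor for fungal glucans, by 2.05. *Ccl24* (1.40), *Ccl22* (1.31) and *Egr2* (1.13) were called as well, and *Tgm2* was called lower at -0.89. *Klf4* (-1.03) and *Irf4* (-0.96) had the lowest differences and did not pass (adjusted p = 0.16 and 0.312 from limma). Without either sham library 0 genes of these 3 lists were called. Without injury replicate 1 there were 2 higher among the other resident macrophage genes, 4 among the monocyte genes and 3 among those induced by interleukin 4, with 284 calls over all genes. Without injury replicate 2 there were 10 higher and 2 lower among the other resident macrophage genes, 14 higher among the monocyte genes, and 7 higher and 2 lower among those induced by interleukin 4, where 943 genes in all were called higher and 847 lower. The study shows *Ccr2*, *Ccl24* and *Ccl22* as upregulated in these libraries too, so their direction is not independent evidence.

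**Figure D3:**
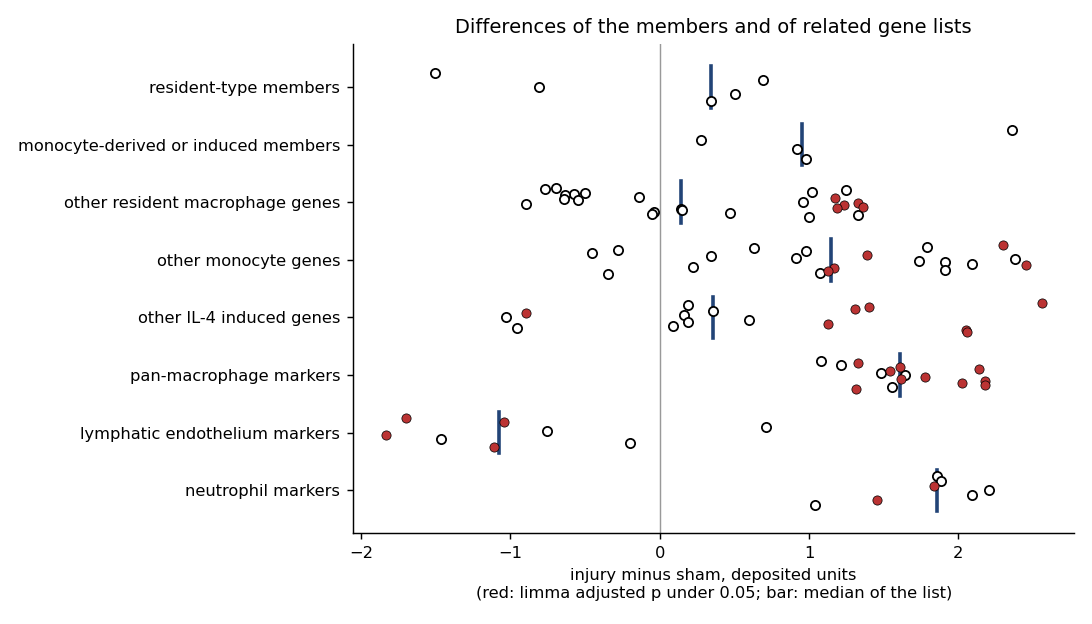
Injury minus sham difference of each gene (deposited units, horizontal axis) by list, with genes at a limma adjusted p under 0.05 in red and the median of each list as a bar. The resident-type genes lie on both sides of 0, the 4 monocyte-derived or induced genes lie above it, and pan-macrophage markers have a median of 1.61.

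Markers of macrophages as a whole were higher after injury. Of 15 markers each had higher values in both injury libraries, as in 31.6% of all genes, limma called 10 higher, as it did 3.76% of all genes, and their differences ran from 1.08 to 2.18. *Csf1r*, the receptor of macrophage colony-stimulating factor, differed by 1.33 (adjusted p = 0.0344 from limma), *Cd68* by 1.21 (adjusted p = 0.0628) and *Adgre1*, which encodes a surface protein of mature macrophages, by 1.08 (adjusted p = 0.147). The median of the 15 markers was -1.23 and -1.31 in the sham libraries, 0.86 in injury replicate 1 and -0.0019 in injury replicate 2. For each of the 15 the value of injury replicate 1 exceeded that of replicate 2, with a median gap of 0.83. Without either sham library 0 of the 15 were called, without injury replicate 1 there were 7 (284 of all genes), and without injury replicate 2 all 15 (1790 of all genes). *Ly6c2*, *Plac8*, *Chil3* and *Folr2* had that order too, by 0.48 to 1.77. *Mrc1* and *F13a1* differed by under 0.1 between the injury libraries, and *Lyve1*, *Cd163* and *Retnla* had the opposite order.

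To set the genes against the macrophage content of each library, the median of the 15 markers was subtracted from every value, a step chosen after the data were seen. That median was 1.70 higher after injury, so the median difference over all genes becomes -1.69, and 97.2% of all genes had both injury libraries below both sham libraries on this scale. The 5 resident-type genes did so, as did *Plac8* and *Chil3*. *Lyve1* had the lowest relative difference (-3.20), with 1.79 and 1.80 after sham operation and -2.37 and -0.45 after injury. *Cd163* followed at -2.51, and *F13a1* (-1.36), *Mrc1* (-1.19) and *Folr2* (-1.01) lay above the median of all genes. *Retnla*, at -0.72, overlapped between the groups. *Ly6c2* was the only one of the 9 genes whose mean difference was above that of the macrophage markers (0.66), with relative values of -0.81 and 0.57 after sham operation and of 0.996 and 0.087 after injury that overlapped. These values are a description, with no test.

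**Figure D4:**
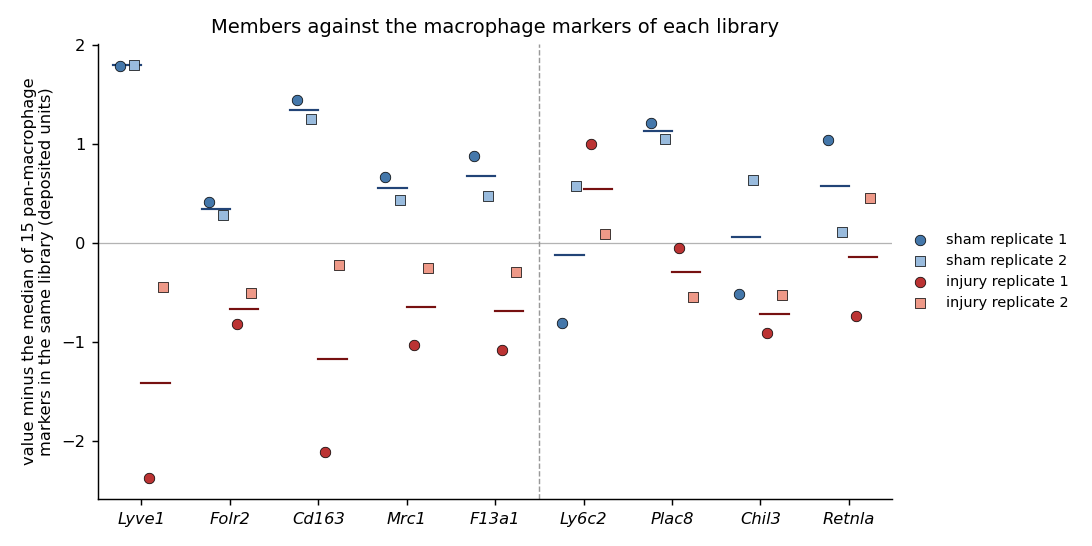
Value of each gene minus the median of the 15 pan-macrophage markers in the same library (deposited units), for the 2 sham libraries (blue) and the 2 injury libraries (red), with a bar at each group mean. The 5 resident-type genes lie lower in both injury libraries, as 97.2% of all genes do, and *Lyve1* spans the widest distance.

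Markers of other cells that use some of these genes were counted in the same way. Of 13 neutrophil markers 7 were analysed, each with higher values in both injury libraries, as in 31.6% of all genes, and limma called 2 of them higher, as it did 3.76% of all genes. It called 4 higher after quantile normalization, beside 509 of all genes, and 4 with columns scaled to one spread, beside 545 of all genes. With each library left out, the median difference of the 7 was 1.35 (without injury replicate 1) to 2.52 (without injury replicate 2). Their mean was -1.25 and -0.91 after sham operation, 1.26 in injury replicate 1 and 0.12 in replicate 2. *S100a8* and *S100a9* differed by 1.86 and 1.88 (adjusted p = 0.0707 and 0.0711 from limma). Neutrophils also use *Plac8* and *Chil3*, and their part in the values of these genes was not tested. Of 12 lymphocyte markers 5 were analysed and none was called by limma, with 2 at an unadjusted p under 0.05 and higher. Of the 8 dendritic cell markers analysed none was called, with 3 higher and 1 lower at an unadjusted p under 0.05, where the share over all genes was 14.8% each way. The median difference was 0.59 over the lymphocyte and 0.18 over the dendritic cell markers. It was 1.02 and 0.26 without injury replicate 2, and 0.43 and 0.13 without injury replicate 1. Of the 10 adipocyte markers, which were all analysed, 1 was called lower and none higher, where the shares over all genes were 3.67% and 3.76%. Both injury libraries lay below both sham libraries in 5 of the 10 and above them in 1, beside 30.3% and 31.6% of all genes. Because the values are centred gene by gene, none of these markers can be read as present or absent.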

How the data were processed

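RNA-seq libraries of 2 sham-operated and 2 injured samples were analysed. Per the submitters' processing notes, the authors used FastQC 0.11.8, Cutadapt 1.18, Trimmomatic 0.39, STAR 2.6.0a with mm9, featureCounts and DESeq2 1.28.0 on R 3.6.0. The authors deposited signed scores on a log-like scale, not counts, and the step that made them is not given in the sources used here. Depth is therefore unknown, no interval for counting error was given and no filter on low values was possible. Differences were tested with limma 3.58.1 in R 4.3.3 (group as the only term, 12661 genes, Benjamini-Hochberg adjustment), which has 2 residual and 3.48 prior degrees of freedom and was tested on simulated data. Tables and plots were made with pandas 2.3.3, numpy 2.4.6 and matplotlib 3.10.9 in Python 3.11.15.

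The members and the lists were chosen with earlier results of these data known. Named from the lists, apart from items not reported here, were the genes called, the 2 highest and the 2 lowest, and fixed markers and relatives of the members. Coordinates are those of GENCODE on NCBIM37, the assembly of mm9, and promoter windows those of RefSeq on GRCm38.p6. The alternatives were a replicate block, each library left out, other scalings, a variance prior fitted robustly, each set of identical rows taken once and other thresholds.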

Additional observations from a re-analysis of the deposited data

How the results depend on the processing

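In limma 941 genes were called, against 684 with a replicate block, 2317 at an adjusted p under 0.1, 591 with a minimum difference of 1 unit and 0 to 1790 with each library left out (1790 without injury replicate 2). No resident-type gene was called in the fit reported. *Lyve1* alone was called at an adjusted p under 0.1 (1 gene), after quantile normalization (1 gene) and with columns scaled to one spread (1 gene), and 0 to 3 were called with each library left out, the 3 being *Lyve1*, *Cd163* and *Folr2* without injury replicate 2. Of the monocyte-derived or induced genes, *Ly6c2* was called at an adjusted p under 0.1 (1 gene), and 0 to 2 were called with each library left out, the 2 being *Ly6c2* and *Plac8* without injury replicate 2. Relative to the macrophage markers, chosen after seeing the data, the median difference was -1.36 for the resident-type and -0.75 for the other genes. It was -1.69 over all genes on that scale. On the deposited values, that median was 0.097 to 0.58 for the resident-type and 0.91 to 1.06 for the other genes with each library left out. The difference of *Plac8* was -0.40 to 0.95 with each library left out, and that of no other gene of the 9 changed its sign in a fit to the deposited values.

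With a library left out, 1 residual degree of freedom remains and the lone library is assumed to vary like the other group. The replicate block changed no call among the 9 genes, while the 1 gene induced by interleukin 4 that was called lower (*Tgm2*) and the 1 adipocyte marker called lower were not called with it (0 each). Same-numbered libraries share only a number (correlation of their deviations -0.094). A filter on low values could not be run.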
